A study of Drosophila melanogaster with 9 samples.

Results

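The mitochondrial fusion and nebenkern genes of the fly testis were followed across 3 regions of the testis, enriched for mitotic, meiotic or post-meiotic germ cells. The set is a list of gene names, picked by function and not by a threshold on the measured values, and holds 10 genes: fzo, Marf, Opa1, Drp1, Pink1, park, rho-7, nmd, milt and knon. Of the 10 genes, 9 were measured, through 11 of the 18769 probe sets tested. The platform annotation of the array names 7 of them, and 2 (park and nmd) are named by the older Affymetrix annotation in the tables of the study. No probe set carries the name rho-7, a rhomboid protease of the inner mitochondrial membrane, which was therefore not analysed here. Where a gene has several probe sets, the one that was brightest over the 9 arrays stands for it.

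RNA came from testes of the wild-type TEMPE T strain of Drosophila melanogaster, 6 to 10 days old. The mitotic sample is the apical tip of the testis, the meiotic sample is the spermatocytes pressed out of the middle region, and the post-meiotic sample is the detached basal region. Each phase has 3 biological replicates of 250 to 500 dissections on Affymetrix Drosophila Genome 2.0 arrays, and no mutant or treatment enters the design. A phase is thus a region enriched for a stage, which also holds germ cells of neighbouring stages and somatic cells.

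In fly spermatids the mitochondria gather beside the nucleus after meiosis and fuse into a pair of giant mitochondria wrapped around each other, the nebenkern, which unfolds and lengthens along the growing sperm tail. Mitofusins are GTPases that join outer mitochondrial membranes, the dynamin relative Opa1 joins inner membranes and shapes cristae, and the dynamin relative Drp1 divides mitochondria. The kinase Pink1 and the ubiquitin ligase park mark damaged mitochondria, and males mutant for either have misshapen spermatid mitochondria. Most messenger RNA used in spermatids is made earlier, in spermatocytes.

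The values are hybridization intensities (log2) after RMA background correction and quantile normalization by the authors, so a difference of 1 is a doubling of signal. Intensities of different probe sets are not on a common scale, and only changes are set side by side between genes. Replicates of a phase correlated at r = 0.993 to 0.998 across probe sets, and the median intensity of an array lay between 6.36 and 6.54. Spermatogonial genes marked the apical samples: all 6 measured (bam, zpg, nanos, vas, Phf7 and piwi) fell from mitosis to meiosis, with a median change of -2.59. Of 10 spermatocyte genes, 1 was higher in meiosis than in mitosis, 7 were lower and 2 missed the threshold, so by these genes the apical samples held spermatocyte RNA as well. All 10 fell from meiosis to post-meiosis (median -2.83). The 7 spermatid genes rose from mitosis to meiosis (median 1.10). From meiosis to post-meiosis 4 of them rose, Mst77F fell (-0.21) and 2 did not pass (median 0.435). The 5 measured genes of the muscle sheath fell from mitosis to meiosis (median -1.29) and rose from meiosis to post-meiosis (median 3.59). The 6 measured hub and cyst cell genes did not move together. In meiosis zfh1, a transcription factor of cyst stem cells, changed by -1.76, tj by -0.29, eya by -0.30 and CadN, a cadherin, by 1.02. The hub gene upd1 did not pass at either step. In post-meiosis hh, the hedgehog ligand of the hub, was higher than in meiosis by 2.85 (limma adjusted p = 3.4e-09). Its mean was 4.40 in the apical samples and 7.31 in the basal ones, so hh did not mark the hub at the apical tip here. The brightest accessory gland gene, Acp36DE, had mean intensities of 8.05, 8.48 and 4.76 in the order of the phases, and the other 6 did not exceed a mean of 6.15 in any phase.

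Most of the genes changed at each step, in both directions. From mitosis to meiosis 5 of the 9 rose (fzo, knon, park, milt and Pink1), 3 fell (Marf, Opa1 and nmd) and Drp1 did not pass (limma, Benjamini-Hochberg adjusted p under 0.05 over all probe sets), where 24.3% of all probe sets rose and 26.3% fell. From meiosis to post-meiosis 3 rose (Pink1, Marf and Drp1), 5 fell (fzo, nmd, knon, Opa1 and milt) and park did not pass, where 37.8% of all rose and 27.8% fell. Between mitosis and post-meiosis, at the ends of the series, 2 were higher in post-meiosis (Pink1 and park), 4 were lower (nmd, Opa1, fzo and milt) and 3 did not pass (Marf, Drp1 and knon), where 49.6% of all rose and 29.5% fell. The median change of the 9 genes was 0.44, -1.44 and -0.25 in these comparisons, against 0.06, 0.13 and 0.21 over all probe sets. The comparisons share samples, so they are not independent of each other. The balance of calls over all probe sets depended on scaling: 57.7% of the calls from meiosis to post-meiosis were rises, but 43.0% with each array centred on its median. Between mitosis and post-meiosis it was 62.7%, but 50.3% with cyclic loess between arrays. Arrays of the phases compared did not overlap for 9 of the 9 genes from mitosis to meiosis (64.5% of all probe sets), for 8 from meiosis to post-meiosis (69.4%) and for 8 between mitosis and post-meiosis (80.7%). In bulk samples such as these, fewer cells of a type and less RNA per cell cannot be told apart.

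**Figure D1:**
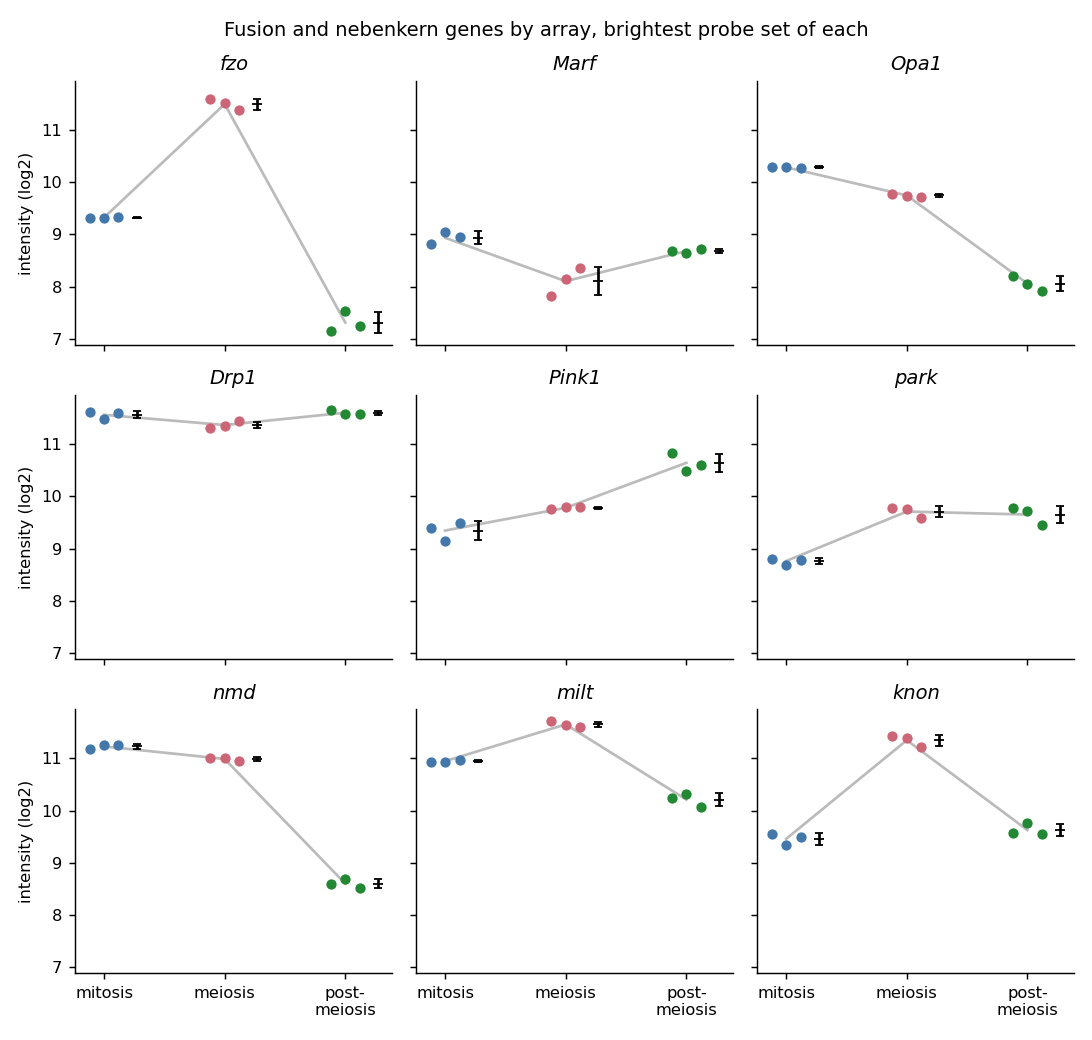
Intensity (log2, vertical axis) of the 9 measured genes on each of the 9 arrays, by phase (horizontal axis). Points are arrays, grey lines join the phase means, and black bars beside the points give mean ± SD of 3 arrays. The meiotic arrays are the highest for fzo, milt and knon, whereas for Marf and Drp1 they are the lowest.

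The testis mitofusin fzo had the widest range of the 9 genes. It encodes the fuzzy onions protein, needed for the fusion of spermatid mitochondria into the nebenkern. Its intensity was 9.31, 9.32 and 9.33 on the mitotic arrays, 11.58, 11.52 and 11.38 on the meiotic arrays and 7.16, 7.53 and 7.24 on the post-meiotic arrays. Every meiotic array thus lay far above all others, and every post-meiotic array below all others, with no overlap between any of the phases. The rise into meiosis was 2.17 (SE 0.10), or 4.51-fold, larger than 99.9% of all changes in that comparison, and the fall into post-meiosis was 18.1-fold (change -4.18, SE 0.10). Between the ends, post-meiosis was 4.02-fold below mitosis (change -2.01, adjusted p = 7.7e-10). The alternatives put the rise between 2.13 and 2.36, the fall between -4.33 and -3.70 and the difference between the ends between -2.12 and -1.35, the smallest being that with cyclic loess.

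Marf, the mitofusin used throughout the body, moved the other way. Its intensity was 8.81, 9.05 and 8.95 on the mitotic arrays, 7.82, 8.14 and 8.35 on the meiotic arrays and 8.68, 8.64 and 8.72 on the post-meiotic arrays. The meiotic arrays were the lowest and spread the most (SD 0.27, n = 3), but did not overlap those of the other phases. The fall from mitosis to meiosis was 1.78-fold (change -0.83, SE 0.12, adjusted p = 5.3e-05), and the rise to post-meiosis was 1.49-fold (change 0.58, SE 0.12, adjusted p = 9.6e-04). Cyclic loess between arrays moved these changes to -0.55 and 1.09. The difference between the ends, -0.25 (adjusted p = 0.0699), did not pass, although it did in 5 of 15 alternatives with the same sign, and its sign turned with cyclic loess (0.54, adjusted p = 0.0020). Muscle sheath genes were also lowest in meiosis: the log2 of their summed intensity ran from 9.26 to 9.88 in mitosis, from 8.03 to 8.19 in meiosis and from 11.92 to 12.24 in post-meiosis. The part of sheath RNA in the Marf signal was not tested.

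Set against each other on the same array, the mitofusins changed in opposite directions at both steps. The log2 ratio of the fzo to the Marf signal was 0.50, 0.27 and 0.39 on the mitotic arrays, 3.77, 3.37 and 3.03 on the meiotic arrays and -1.53, -1.10 and -1.48 on the post-meiotic arrays. Only the shifts of this ratio are read here, since its zero depends on the probes. It moved by 3.003 (SE 0.22), or 8.02-fold, towards fzo from mitosis to meiosis, and by -4.76 (SE 0.25), or 27.1-fold, towards Marf from meiosis to post-meiosis. Between mitosis and post-meiosis the shift was -1.76 (SE 0.15). Each shift separated all arrays of the phases compared (exact permutation over arrays, two-sided p = 0.1 each and 0.1 after adjustment over 6 tests of such ratios, where no smaller p can arise from 3 arrays against 3).

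**Figure D2:**
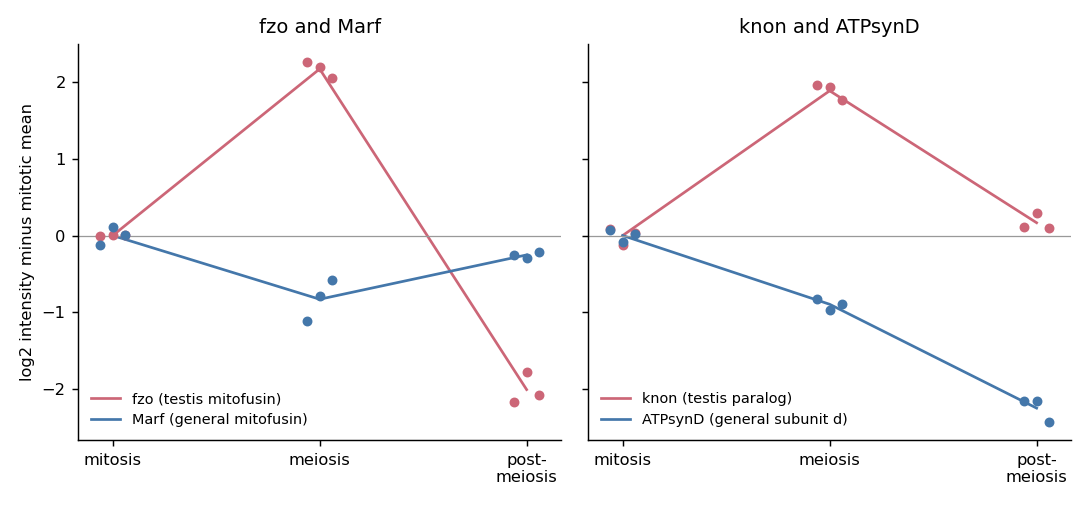
Intensity (log2) minus the mitotic mean of the same probe set (vertical axis) by phase (horizontal axis), for fzo and Marf (left) and for knon and ATPsynD (right). Points are arrays and lines join phase means. fzo rises and then falls below its mitotic level, whereas Marf falls and then rises. ATPsynD falls at both steps, and knon rises and then returns near its mitotic level.

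A second testis gene with a general relative is knon (knotted onions), a testis form of the d subunit of ATP synthase, named for the shape of the mutant nebenkern. The intensity of knon was 9.55, 9.34 and 9.49 on the mitotic arrays, 11.42, 11.39 and 11.22 on the meiotic arrays and 9.57, 9.75 and 9.55 on the post-meiotic arrays. All meiotic arrays were above all others, and the phases at the ends lay next to each other. The rise was 3.70-fold (change 1.89, SE 0.09, adjusted p = 6.1e-09) and the fall 3.295-fold (change -1.72, SE 0.09, adjusted p = 2.7e-09). Mitosis and post-meiosis differed by 0.17 (SE 0.09, adjusted p = 0.116), which passed only with cyclic loess among the alternatives (0.60, adjusted p = 5.7e-05). Unlike fzo, knon was therefore not below its mitotic level in post-meiosis in any alternative.

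ATPsynD, the general d subunit, fell at each step, from 12.34 ± 0.08 (SD, n = 3) in mitosis to 11.45 ± 0.07 in meiosis and 10.09 ± 0.16 in post-meiosis. Its probe set, like that of ATPsynC, is of the type _s_at, whose probes can match transcripts of more than one gene. The log2 ratio of knon to ATPsynD on the same array shifted by 2.78 (SE 0.07) from mitosis to meiosis, or 6.88-fold. From meiosis to post-meiosis it shifted by -0.37 (SE 0.10), a small part of the first shift, and between the ends by 2.42 (SE 0.08). All arrays of the phases compared were separated in each case (exact permutation over arrays, two-sided p = 0.1, as small as this design allows). With cyclic loess the shift from meiosis to post-meiosis was -0.23 and no longer separated them (exact permutation p = 0.2). Most other measured genes of the enzyme, which makes ATP from the proton gradient, fell as ATPsynD did. Of 13 measured genes, ATPsynD and ATPsynepsilonL included, 12 were lower in meiosis than in mitosis, where 26.3% of all probe sets fell. ATPsynB (-0.06) missed the threshold, and the 12 include sun, a dim probe set (5.49 in mitosis and 4.61 in meiosis). In that step ATPsynbeta, the catalytic subunit, fell by 2.58 and ATPsynC, of the membrane ring, by 1.55. From meiosis to post-meiosis 11 fell (27.8% of all probe sets did), ATPsynbeta rose (0.35) and sun did not pass, with a median of -0.85. The largest of those changes was that of ATPsynepsilonL, which resembles the epsilon subunit by name (-4.62). The medians over the 13 genes were -0.90 and -1.93 for meiosis and post-meiosis against mitosis, compared with a change of 1.89 and 0.17 for knon.

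Of the inner membrane genes, Opa1 fell at both steps. Its intensity was 10.30, 10.29 and 10.26 on the mitotic arrays, 9.78, 9.74 and 9.71 on the meiotic arrays and 8.20, 8.05 and 7.92 on the post-meiotic arrays. The phases followed each other downwards without overlap. The fall was 1.45-fold into meiosis (change -0.54, SE 0.08, adjusted p = 1.0e-04) and 3.22-fold into post-meiosis (change -1.69, SE 0.08, adjusted p = 1.1e-09). With cyclic loess the first change was -0.35 and the second -1.21. The gene for inner membrane fusion was thus lower in meiosis than in mitosis, whereas the gene for outer membrane fusion in spermatids, fzo, was higher. Both genes fell from meiosis to post-meiosis.

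The fission gene Drp1 changed least. Its intensity ran from 11.48 to 11.61 in mitosis, from 11.31 to 11.43 in meiosis and from 11.58 to 11.65 in post-meiosis. The meiotic arrays were the lowest, by a narrow margin, and the other phases overlapped. The change of -0.20 (SE 0.08) from mitosis to meiosis gave an adjusted p = 0.0506 and passed in 7 of 15 alternatives, with cyclic loess at -0.46 (adjusted p = 2.2e-04). The change of 0.24 (SE 0.08, adjusted p = 0.0166) from meiosis to post-meiosis was lost with centred arrays (0.09, adjusted p = 0.37) and without meiotic replicate 1 (0.21, adjusted p = 0.0598) or 2 (0.23, adjusted p = 0.0518). Among the other fission genes, Fis1, an outer membrane adaptor, fell at both steps (-0.60 and -0.38), and Tango11, the fly relative of the Drp1 receptor Mff, changed by -0.37 (adjusted p = 0.0687) and then rose by 0.63.

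The nebenkern gene nmd (no mitochondrial derivative), an ATPase of the AAA family, stayed high through meiosis and then dropped. Its intensity was 11.18, 11.26 and 11.25 on the mitotic arrays, 11.00, 11.01 and 10.95 on the meiotic arrays and 8.59, 8.69 and 8.52 on the post-meiotic arrays. The fall from mitosis to meiosis was slight (change -0.24, SE 0.08, adjusted p = 0.0183) and did not pass with centred arrays (-0.18, adjusted p = 0.0693), or without mitotic replicate 2 (adjusted p = 0.0604), mitotic replicate 3 (adjusted p = 0.0582) or meiotic replicate 3 (adjusted p = 0.0694). The fall into post-meiosis was 5.23-fold (change -2.39, SE 0.08, adjusted p = 2.4e-11). Over both steps nmd was 6.18-fold lower, the largest fall of the 9 genes between mitosis and post-meiosis in the deposited values.

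The quality control genes Pink1 and park were the 2 of the 9 called higher in post-meiosis than in mitosis, as were 49.6% of all probe sets. With cyclic loess, Marf and knon were called higher as well. The intensity of Pink1 was 9.39, 9.15 and 9.49 on the mitotic arrays, 9.76, 9.79 and 9.79 on the meiotic arrays and 10.82, 10.49 and 10.61 on the post-meiotic arrays. It rose at both steps without overlap between phases, by 0.44 (SE 0.11, adjusted p = 0.0036) and by 0.86 (SE 0.11, adjusted p = 9.7e-06), and in all by 2.46-fold. For park it was 8.81, 8.69 and 8.79 on the mitotic arrays, 9.78, 9.75 and 9.59 on the meiotic arrays and 9.78, 9.72 and 9.46 on the post-meiotic arrays. The rise of park came in the first step (change 0.95, SE 0.10, 1.93-fold, adjusted p = 2.3e-06), and the later phases overlapped (change -0.06, SE 0.10, adjusted p = 0.612). Post-meiosis was above mitosis by 0.89 (1.55 with cyclic loess). The sign of the change from meiosis to post-meiosis was not settled, since it was 0.42 with cyclic loess (adjusted p = 6.4e-04) and 0.038 without post-meiotic replicate 3. Both genes are read by probe sets of the type _s_at, whose probes can match transcripts of more than one gene.

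Other genes of the Pink1 and park pathway went in both directions. Of 9 measured, 4 were higher and 4 lower in meiosis than in mitosis, and ref(2)P, a selective autophagy receptor, missed the threshold. Over all probe sets 24.3% rose and 26.3% fell in that step. The rises of the pathway genes were led by DJ-1alpha (1.30), the testis relative of the oxidative stress gene dj-1beta, and HtrA2 (0.82), a protease of the intermembrane space. The fall of clu, an RNA-binding protein gene that places mitochondria in the cell, was the largest (-2.18), and dj-1beta fell by 0.93. DJ-1alpha and dj-1beta thus moved in opposite directions from mitosis to meiosis, whereas both fell in the later step (-0.66 and -0.32). From meiosis to post-meiosis 2 rose (clu and Usp30, a deubiquitinase that opposes park), 5 fell and 2 did not pass. The steepest change was that of Paris (-2.88), a zinc finger gene regulated by park. Over all probe sets 37.8% rose and 27.8% fell. Against mitosis, HtrA2 (1.03), DJ-1alpha (0.64) and Usp30 (0.57) were higher in post-meiosis, with Pink1 and park, whereas the other 6 were lower. Of all probe sets 49.6% were higher there and 29.5% lower.

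Among genes of mitochondrial shape outside the set, falls outnumbered rises. Of 12 measured, 3 rose, 6 fell and 3 did not pass from mitosis to meiosis (median -0.45), where 24.3% of all probe sets rose and 26.3% fell. From meiosis to post-meiosis 4 rose and 8 fell (median -0.29), where 37.8% of all rose and 27.8% fell. The largest falls in the first step were those of the prohibitin gene Phb2 (-1.52) and of Chchd3 (-1.41), a part of the cristae junction complex. Mul1, a mitochondrial ubiquitin ligase that acts on mitofusin, rose by 1.08. In the later step Miga, an outer membrane gene that promotes fusion, fell by 1.10, and Letm1, of the inner membrane, rose by 0.74.

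**Figure D3:**
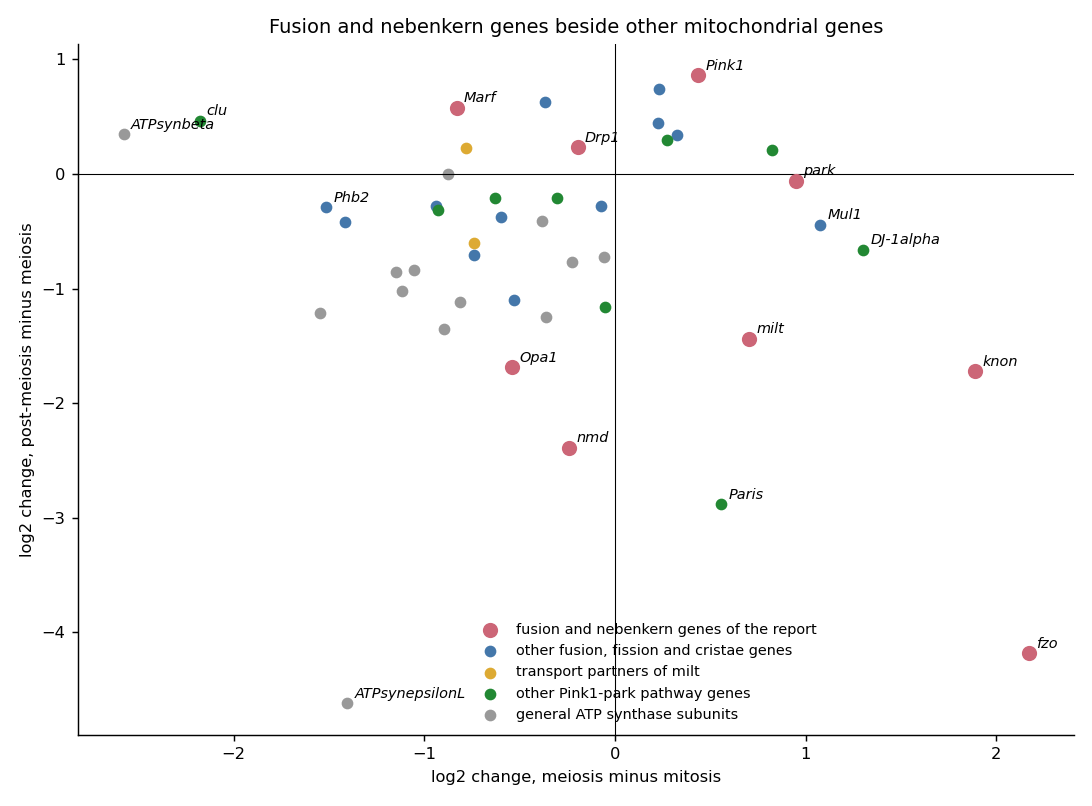
Log2 change from mitosis to meiosis (horizontal axis) against that from meiosis to post-meiosis (vertical axis), 1 point per gene from the limma fit of 3 arrays per phase. Both axes share the meiotic arrays, so their relation is not read. fzo, knon and milt lie at the lower right (up, then down), Marf and Drp1 at the upper left, and most ATP synthase genes at the lower left (down at both steps).

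The transport gene milt gave opposite results at different probe sets. Its product, Milton, links mitochondria to kinesin through Miro. The brightest probe set was at 10.94, 10.93 and 10.97 on the mitotic arrays, 11.70, 11.64 and 11.60 on the meiotic arrays and 10.24, 10.31 and 10.08 on the post-meiotic arrays. It was highest on all meiotic arrays, rising by 0.70 (SE 0.08, adjusted p = 7.1e-06) into meiosis and changing by -1.44 (SE 0.08, adjusted p = 4.3e-09) after it. The second probe set was at 7.20, 7.45 and 7.33 on the mitotic arrays, 5.78, 6.02 and 6.12 on the meiotic arrays and 7.72, 7.43 and 7.29 on the post-meiotic arrays. It was lowest on all meiotic arrays, changing by -1.35 (SE 0.12, adjusted p = 6.7e-07) into meiosis and by 1.51 (SE 0.12, adjusted p = 1.6e-07) after it. The third lay between 5.52 and 5.74 on all 9 arrays and did not pass in any comparison.

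The older Affymetrix annotation ties the first milt probe set to another transcript than the second, and which transcripts each reads was not tested. Averaged over its 3 probe sets, milt changed by -0.24 into meiosis (adjusted p = 0.0309) and by 0.032 into post-meiosis (adjusted p = 0.742), so that the direction given above holds for its brightest probe set alone. The muscle sheath genes dipped in meiosis like the second probe set. Against mitosis, all 5 were higher in post-meiosis, with changes from 1.85 to 2.695 (median 2.49). The second probe set changed by 0.16 in that comparison (limma adjusted p = 0.255). The part of the sheath in its signal was not tested. Both measured partners of milt were lower in meiosis: Miro, the outer membrane GTPase that anchors Milton, fell by 0.78 and Klc, a kinesin light chain, by 0.74. In post-meiosis Klc fell further (-0.60), and Miro changed by 0.23 (adjusted p = 0.0834).

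**Figure D4:**
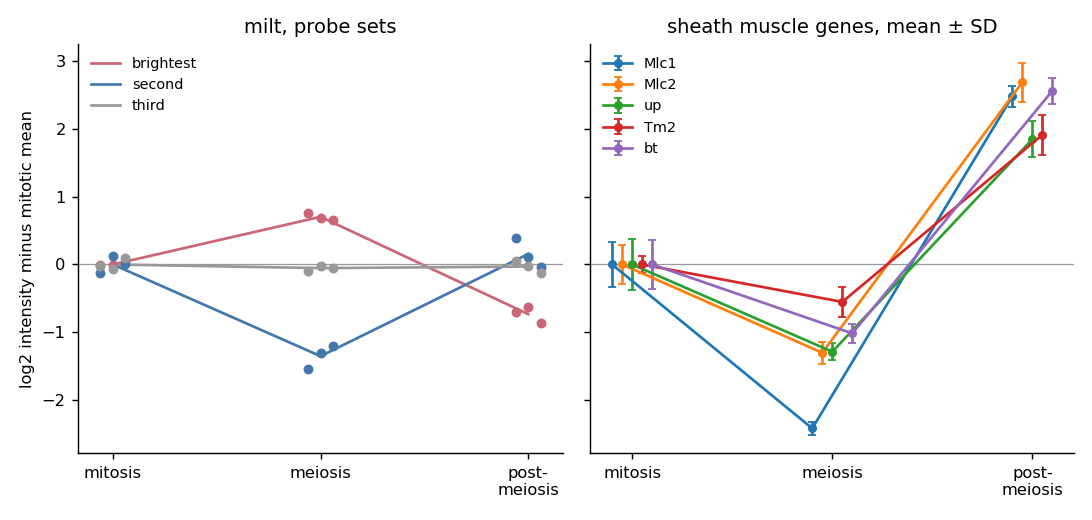
Intensity (log2) minus the mitotic mean (vertical axis) by phase (horizontal axis), for the 3 probe sets of milt (left, points are arrays, lines join means) and for the 5 muscle sheath genes (right, mean ± SD, n = 3). The brightest milt probe set peaks in meiosis and the second dips there, as all 5 muscle genes do.

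Other genes shared these profiles closely. The likeness was measured as the root mean square difference of log2 profiles over the 9 arrays, each centred on its mean, in a search of 11980 named genes. Nearest to fzo were CG10909 (0.121) and Prosalpha4T1 (0.135), a testis-specific proteasome subunit, followed by CG4891 (0.253), CG5043 (0.295) and CG11322 (0.299). The first 2 lay well apart from the others. Prosalpha4T1, for instance, had mean intensities of 8.16, 10.23 and 5.94 in the order of the phases. Nearest to knon were CG30393 (0.115), CG31213 (0.119), lncRNA:CR43904 (0.122), CG8260 (0.140) and CG34169 (0.144). Those of Marf were REG (0.0992), a proteasome activator, cnir (0.111), kar (0.123), C3G (0.126), a guanine nucleotide exchange factor, and Not10 (0.126), of the deadenylase complex. None of these genes was in the lists described above.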

How the data were processed

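The 9 samples are the apical, middle and basal testis regions described above, 3 biological replicates each, and depth on arrays is limited by their number. The deposited values are log2 intensities, made by the authors with RMA background correction and quantile normalization from Affymetrix arrays in R, without pooling replicates (versions are not given in the sources used here). They were tested without a further step. RMA compresses changes of dim probe sets, and no detection calls were used here. Of 18952 probe sets, 183 controls were set aside. The platform annotation gives 1 symbol to 13646 probe sets, several to 402 and none to 4721. Symbols were updated through RefSeq gene identifiers (Release 6), and park and nmd were named through the probe set names in tables of the study, of which no value was used. No sequences of genes or probes were used here.

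All phases entered 1 fit with limma 3.58.1 (lmFit and eBayes, R 4.3.3), two-sided, with Benjamini-Hochberg adjustment over 18769 probe sets and a threshold of 0.05, checked first on simulated data. Ratios of 2 genes were compared by exact permutation over arrays (scipy 1.17.1). The members, companion lists and markers were chosen with earlier results of these data known. Named are all members with each of their probe sets, ATPsynD, up to 4 genes of a companion list with the largest changes per comparison and the 5 nearest profiles of fzo, Marf and knon. Other genes of a list were named after their values were seen. Alternatives were a mean log2 intensity of at least 6, centred arrays, cyclic loess, the mean of the probe sets of a gene, a replicate block, only the 6 arrays compared and leaving out each array, and, added after the data were seen, probe sets named by the platform annotation only and no _s_at probe sets. No alternative was run on the counts of the companion lists, in which Phb2, Letm1 and Tango11 are among the genes read by _s_at probe sets. The labels call replicates biological, and whether a number links samples of different phases is not stated.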

Additional observations from a re-analysis of the deposited data

How the results depend on the processing

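The rises and falls of fzo, Marf, knon, Opa1 and Pink1 at both steps kept direction and call under the 15 alternatives run on each gene. So did the rise of park at the first step and the later falls of nmd. Counts of genes called stayed within 1.5 times except for these. With the mean of the probe sets of a gene, 5 rather than 3 of the 9 genes fell from mitosis to meiosis, since milt (-0.24) and Drp1 joined. With cyclic loess, 4 rather than 2 were higher in post-meiosis than in mitosis, since Marf (0.54, reversed) and knon passed. The other changes of sign were those of milt from meiosis to post-meiosis with averaged probe sets (0.032), of park over that step with cyclic loess (0.42) and without post-meiotic replicate 3 (0.038, the highest with an array left out, the lowest being -0.12), and of Drp1 between mitosis and post-meiosis with centred arrays (-0.042). Cyclic loess also took the shift of the ratio of knon to ATPsynD from meiosis to post-meiosis to -0.23 (exact permutation p = 0.2). The causes were not tested. Of the 7 genes without _s_at probe sets, which leave out Pink1 and park, 3 rose from mitosis to meiosis, and by limma 0 were higher in post-meiosis than in mitosis (0 also at an unadjusted p under 0.05). Of the 7 named by the platform annotation, 1 was higher there.

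With each array left out in turn, 2 to 4 genes fell from mitosis to meiosis (5 rose), 2 to 3 rose from meiosis to post-meiosis (5 fell) and 4 to 5 were lower in post-meiosis than in mitosis (2 higher). The shift of the ratio of fzo to Marf ranged from 2.81 to 3.18, from -4.94 to -4.57 and from -1.89 to -1.68. That of knon to ATPsynD ranged from 2.72 to 2.84, from -0.43 to -0.29 and from 2.36 to 2.49. Whether the replicate numbers pair the samples was not settled. Correlations of the deviations of same-numbered arrays lay between -0.086 and 0.36, and those of differently numbered arrays between -0.223 and 0.151. With a replicate block, the difference of Marf between mitosis and post-meiosis (-0.25) passed (adjusted p = 0.0465), and no other call changed. The number of arrays limits precision.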
